A study of Rattus norvegicus with 12 samples.

Results

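Cell-cell junction genes were followed in F111 cells, an established line of rat fibroblasts, after 16 h in suspension (NA16) and after 16 h of adhesion (A16). NA16 cells were plated over agarose so that they could not attach, and A16 cells, the control, were plated on uncoated plastic in the same serum-containing medium. The NA16 culture was a mixed population, since the study notes that only some of the cells stayed viable without attachment, and both states come from this single line. RNA of each state was hybridised to 3 Affymetrix rat expression arrays, labelled as 2 biological replicates and 1 technical repeat. What made a replicate biological is not given, and the p-values cover only how far these samples differ among themselves, which may be technical. The genes were taken by symbol: cadherins (Cdh), non-clustered protocadherins (Pcdh), claudins (Cldn), connexins (Gja to Gjd), Tjp1 to Tjp3, Ocln, nectins, Epcam, the alpha and delta catenins (Ctnna and Ctnnd), and the desmosomal plaque genes Jup, Dsp and Pkp1 to Pkp4. The rule found 70 of the 14217 genes that had a probe set with a single symbol, and each gene was read on its brightest probe set. One of the 70, Dspp, was matched only because its symbol begins like that of Dsp. It encodes dentin sialophosphoprotein, a tooth matrix protein, and is no junction gene.

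Adherens junctions join classical cadherins to actin through catenins, with nectins as a parallel adhesion system, and desmosomes join desmosomal cadherins to intermediate filaments through plakoglobin, plakophilins and desmoplakin. Tight junctions are built of claudins and occludin on Tjp scaffolds and seal epithelial sheets, and gap junctions are channels of connexins that connect the cytoplasm of adjoining cells. Fibroblasts are known for N-cadherin, cadherin-11 and the connexin Gja1, while E-cadherin, most claudins and Epcam belong to epithelia.

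In suspension, 8 junction genes were higher and 7 were lower at an adjusted p below 0.05 (limma), and 55 were not called. The 8 became 4 with the technical repeat left out, and 5 without A16 replicate 2 or without NA16 replicate 1. Among all genes, 21.9% were called higher and 16.9% were called lower by the same rule. The largest rises were those of Tjp3 (5.38-fold), Nectin2 (2.41-fold), Jup (2.31-fold) and Pkp1 (2.06-fold), and the largest falls were those of Pkp2 (3.62-fold), Cdh3 (2.48-fold) and Gjc1 (2.45-fold). Within the nectins, the plakophilins and the connexins, 1 paralogue or more was called higher while another was called lower, and both nectin calls depended on the probe set. Besides the adjusted p, 4 members rose and 3 fell by at least 2-fold, where 7.74% of all genes rose and 6.12% fell by that much. The 3 NA16 arrays all lay above the 3 A16 arrays for 13 members and all below them for 13, against 27.8% and 23.9% of all genes. The median log2 change over the 70 members was -0.03 and over all genes 0.01, and the median size of the change regardless of sign was 0.11 for the members and 0.27 for all genes.

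Most members gave dim signals, and the share that was called moved with brightness. Of the members, 49 lay among the dimmest 4739 genes, 12 among the middle 4739 and 9 among the brightest 4739. In the dimmest class 4 of 49 members were called (8.16%), where 9.62% of all genes in that class were. In the middle class 5 of 12 were called (41.7%), against 51.6% of all genes there, and in the brightest class 6 of 9 were called (66.7%), against 55.3%. All deposited RMA values lay above 16, as if a constant had been added, and such a constant compresses the fold change of dim genes. No detection calls were read, and whether a dim gene was above background was not measured. In such bulk samples, fewer cells that express a gene and less RNA per cell cannot be told apart.

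**Figure D1:**
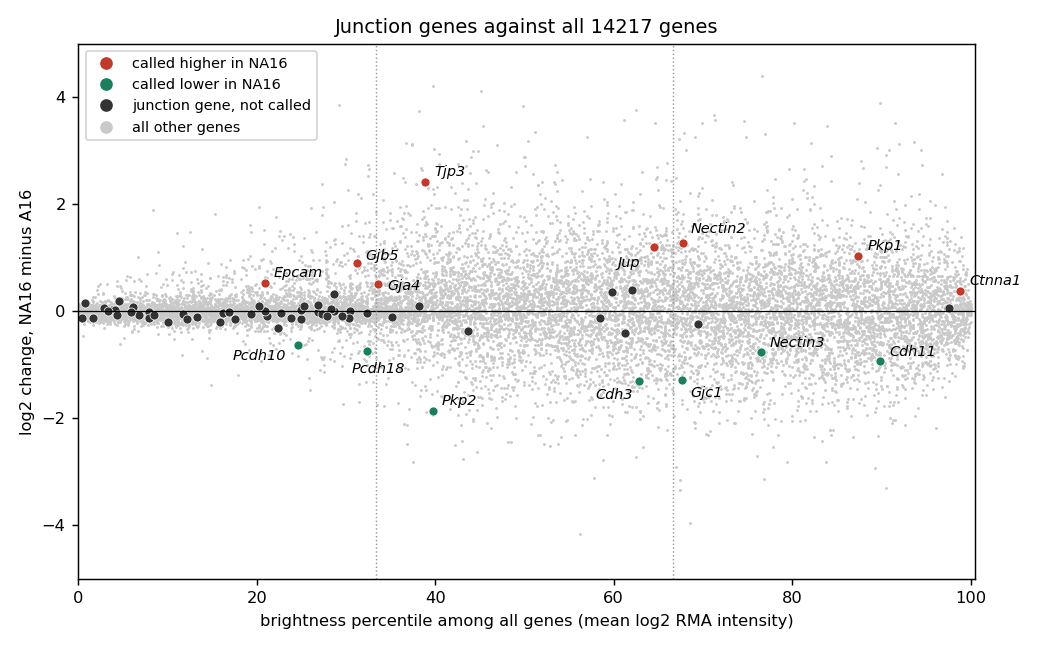
Each gene's log2 change (NA16 minus A16, vertical axis) against its percentile of brightness among all 14217 genes (horizontal axis); grey points are all other genes, dark points junction genes that were not called, red and green points junction genes called higher and lower in NA16, and dotted lines mark the brightness classes. Of the 70 junction genes, 49 sit in the dimmest class, where 9.62% of all genes were called, and the called junction genes with changes of at least 2-fold lie to the right of it. Brightness is the mean over the arrays of both states. Tjp3 (38.9 percentile) had a mean of 6.50 in A16 and 8.93 in NA16, and Pkp2 (39.7 percentile) had 8.79 in A16 and 6.94 in NA16.

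The arrays of a state did not all stand in the order of their labels. In A16, technical replicate 2 was most like biological replicate 1 (Pearson's r = 0.997 across all probe sets, against 0.9912 with biological replicate 2). In NA16 it was most like biological replicate 2 (0.997, against 0.9929 with biological replicate 1). Since the labels list a technical replicate 1 only under biological replicate 1, technical replicate 2 was averaged with that array in both states. Results that move under another choice are given in part beside the genes. An alternative chosen after seeing the data averaged it with its best-correlated array in each state. The limma adjusted p then was 0.0717 for Jup, 0.0723 for Gja4, 0.0584 for Pcdh10 and 0.0561 for Ctnna1, so these calls were lost. NA16 biological replicate 1 lay apart from the other NA16 arrays for several of the genes described below.

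**Figure D2:**
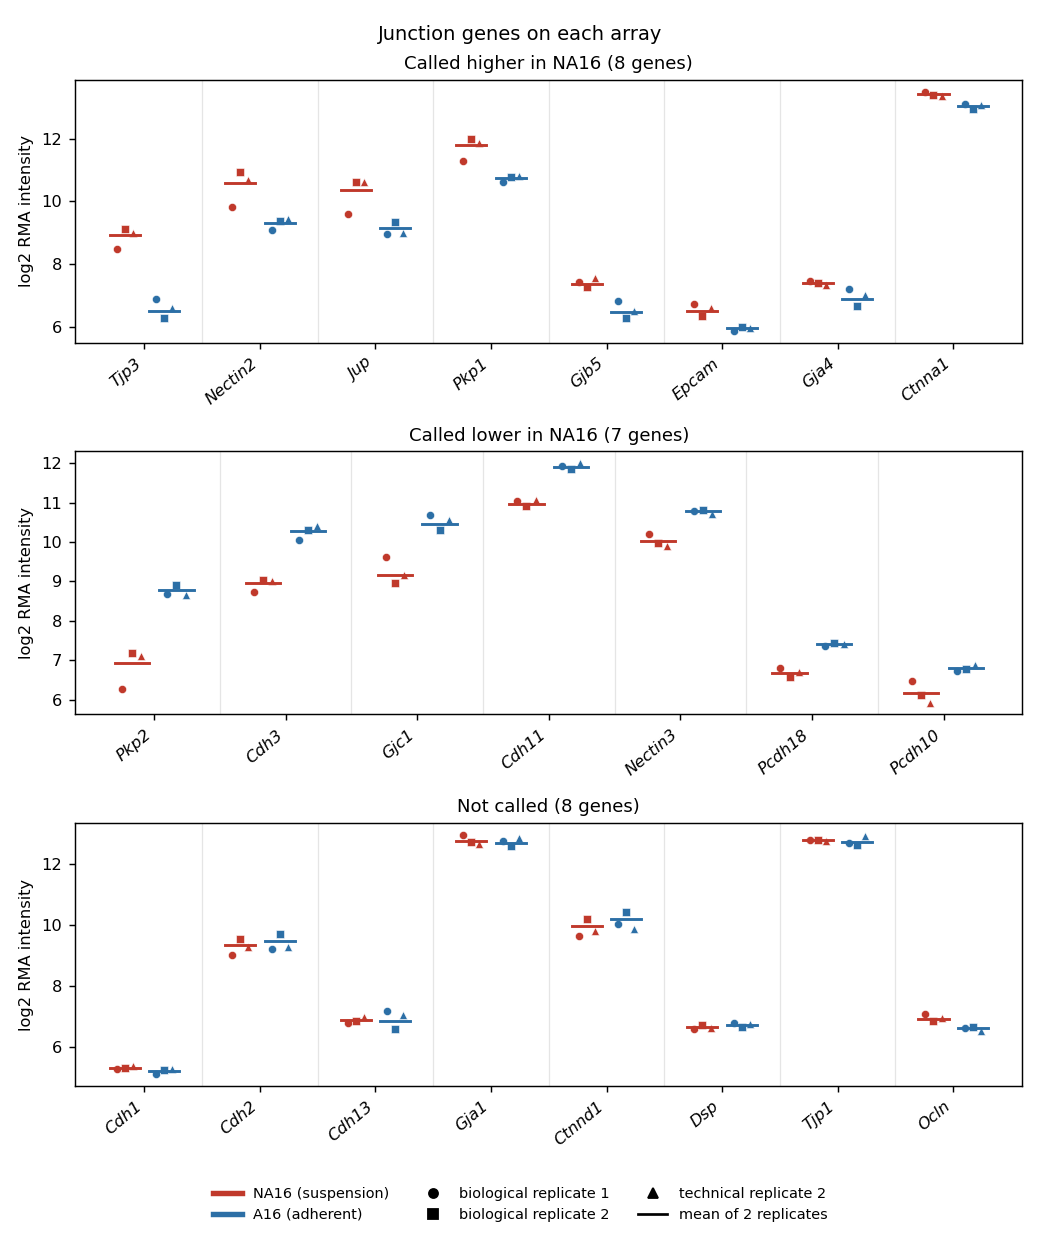
Log2 RMA intensity (vertical axis) of the 15 called junction genes and of 8 genes that were not called, on each array; red marks NA16 and blue A16, circles biological replicate 1, squares biological replicate 2, triangles technical replicate 2, and horizontal lines the mean of the 2 replicates. The arrays of both states are apart for all 15 called genes, which were called on these same arrays. Among the 8 others shown they are apart only for Ocln, but uncalled members not shown, such as Cldn12 and Nectin1, were also apart. Of all genes, 27.8% had every NA16 array above every A16 array and 23.9% had every NA16 array below.

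Among the classical cadherins, Cdh3 fell in suspension. Cdh3 encodes P-cadherin, a cadherin of basal epithelial layers and placenta, and its log2 intensity was 8.75 and 9.05 in NA16 biological replicates 1 and 2 and 9.01 in the technical repeat, against 10.05, 10.31 and 10.41 in A16. Every NA16 array was lower than every A16 array, and the log2 change was -1.31 ± 0.12 (SE, adjusted p = 2.84e-04). Cdh3 lies beside Cdh1 in the order of rat genes. Cdh1 encodes E-cadherin, the main epithelial cadherin, and read 5.26, 5.29 and 5.36 in NA16, against 5.09, 5.24 and 5.27 in A16. These arrays overlap, the change of 0.09 was not called (adjusted p = 0.615), and the signal stood at the 6.13 percentile of all genes, among the dimmest. Cdh2, the N-cadherin of mesenchymal and neural cells, read 9.01, 9.54 and 9.27 in NA16, against 9.20, 9.69 and 9.27 in A16. Its arrays overlap, and the change of -0.12 was smaller than the difference between the replicates of either state. Cdh2 was measured by 3 probe sets, and none of them was called.

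Of 8 type II cadherins, Cdh11 was the only one called. Cdh11, the cadherin of mesenchyme, osteoblasts and fibroblasts, had a bright signal (89.9 percentile). It read 11.04, 10.90 and 11.05 in NA16, against 11.92, 11.86 and 11.99 in A16. The arrays of each state lie close together and the states do not overlap, and the log2 change was -0.93 ± 0.12 (adjusted p = 9.95e-04). A dimmer probe set of Cdh11 gave -0.93 as well, and another gave 0.13 and was not called, so the mean over the probe sets was -0.58. Of the other type II cadherins 7 were not called, with log2 changes between -0.30 (Cdh10) and 0.16 (Cdh12), and all lay in the dimmest class. The 4 cadherins outside both groups, among them the glycolipid-anchored Cdh13, were not called either. Cdh13 read 6.79, 6.84 and 6.98 in NA16, against 7.17, 6.59 and 7.04 in A16, with the A16 replicates spread to both sides of the NA16 values (change 0.01, adjusted p = 0.968).

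The catenins carry cadherins to the cytoskeleton. Ctnna1, the alpha catenin that binds beta-catenin to actin, was very bright (98.8 percentile) and read 13.51, 13.41 and 13.39 in NA16, against 13.12, 12.97 and 13.08 in A16. Every NA16 array was higher, by a small amount: the log2 change was 0.39 ± 0.11, or 1.31-fold (adjusted p = 0.0337). This call was lost in 8 of the 15 alternative readings of the data, among them the PLIER values (0.36, adjusted p = 0.0652) and the fit without NA16 replicate 1 (0.37, adjusted p = 0.222). Ctnnd1, the catenin that binds cadherins near the membrane and keeps them at the surface, read 9.62, 10.20 and 9.80 in NA16, against 10.03, 10.42 and 9.88 in A16. Those arrays overlap, and the change of -0.24 ± 0.21 was not called. Ctnna2 and Ctnnd2, catenins of neurons, were dim and were not called.

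Nectins, immunoglobulin-like adhesion molecules that pair across the cell gap with each other and with the poliovirus receptor Pvr, moved in both directions. Nectin2 read 9.82, 10.94 and 10.69 in NA16, against 9.08, 9.39 and 9.44 in A16. All NA16 arrays were higher, but biological replicate 1 lay nearer to the highest A16 array than to the other NA16 arrays. The log2 change was 1.27 ± 0.22 (adjusted p = 0.00363), and the adjusted p was 0.0553 with the technical repeat left out and 0.0504 with it averaged with biological replicate 2. Other probe sets of Nectin2 gave 0.49 and 0.06 and were not called. Nectin3, which binds nectin-1 and nectin-2 across cells, fell: it read 10.20, 9.98 and 9.90 in NA16, against 10.78, 10.82 and 10.72 in A16. The states are apart by more than the spread within either, with a log2 change of -0.77 ± 0.11 (adjusted p = 0.00179). The dimmer Nectin3 probe sets gave 0.22 and -0.08, so the mean over its probe sets was -0.21 and was not called (adjusted p = 0.217). Nectin1 had lower values on every NA16 array and a change of -0.40 (adjusted p = 0.057), and Nectin4 was dim, with a change of -0.08.

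**Figure D3:**
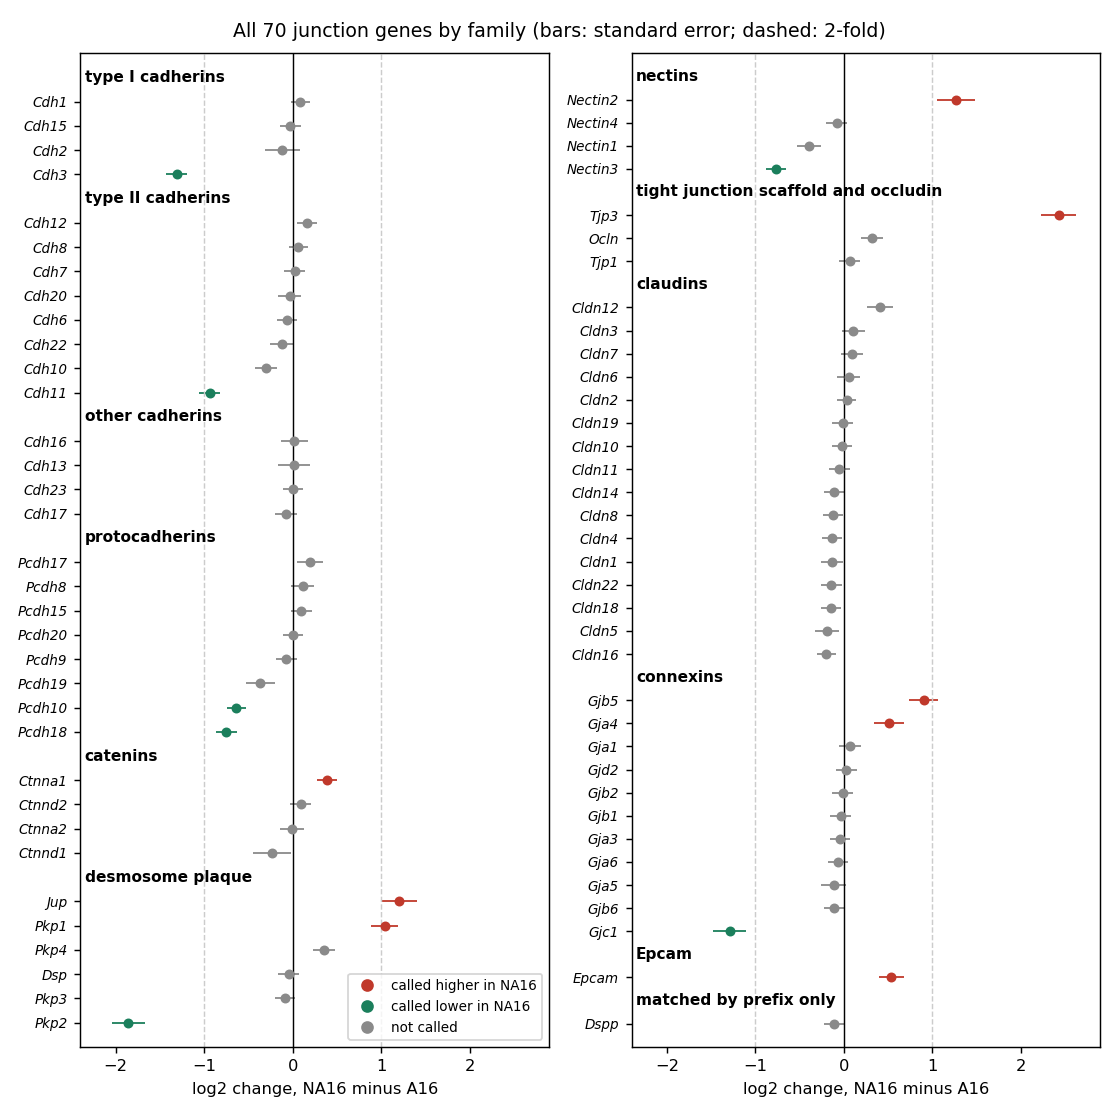
Log2 change of all 70 genes (NA16 minus A16, horizontal axis), grouped by family, with standard errors as bars; red marks genes called higher in NA16, green genes called lower and grey genes not called, and dashed lines mark 2-fold. The desmosome plaque, nectin and connexin families each hold both red and green points, and all 16 claudins are grey.

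The desmosome plaque genes moved in both directions. Jup, plakoglobin, which links cadherins of both adherens junctions and desmosomes to the cell interior, read 9.60, 10.63 and 10.62 in NA16, against 8.98, 9.35 and 8.99 in A16. NA16 was higher throughout, with biological replicate 1 close above the highest A16 array, and the log2 change was 1.21 ± 0.20 (adjusted p = 0.00338). The Jup call was lost with the technical repeat left out (0.96, adjusted p = 0.0826) or averaged with biological replicate 2 (1.04, adjusted p = 0.0535). Pkp1, the plakophilin of stratified epithelia, which also occurs in the nucleus and binds RNA, read 11.30, 11.996 and 11.88 in NA16, against 10.62, 10.79 and 10.80 in A16. It rose by 1.04 ± 0.16 on the log2 scale (adjusted p = 0.00206), with no overlap, and was called in all 15 alternatives fitted by limma. Pkp2, the plakophilin of simple epithelia and heart, went the other way. It read 6.26, 7.18 and 7.12 in NA16, against 8.69, 8.91 and 8.66 in A16. The states lie far apart, and the change of -1.86 ± 0.18 (adjusted p = 3.71e-04) was the largest fall of any member. Pkp4 had higher values on every NA16 array (change 0.36, adjusted p = 0.06), and Pkp3 was dim and was not called. Dsp, desmoplakin, which ties the plaque to intermediate filaments, read 6.57, 6.72 and 6.61 in NA16, against 6.78, 6.63 and 6.73 in A16, with overlapping arrays and a change of -0.04.

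Of Tjp1, Tjp3 and Ocln, only Tjp3 was called on its brightest probe set. Tjp3, a membrane-associated guanylate kinase-like protein that binds claudins and occludin at epithelial tight junctions, read 8.48, 9.13 and 8.99 in NA16, against 6.87, 6.27 and 6.60 in A16. On the linear scale these are intensities of 356.7, 558.5 and 506.9 in NA16, against 116.7, 77.3 and 96.9 in A16. The lowest NA16 array was far above the highest A16 array. The log2 change of 2.43 ± 0.20 (adjusted p = 1.84e-04) was the largest of any member and was called in all 15 alternatives fitted by limma. The PLIER values gave 4.09, with low log2 values of 4.46, 4.31 and 4.39 in A16. Whether those A16 values were above background was not measured. Tjp1, the scaffold found in nearly all cells with junctions, fibroblasts included, was bright and was not called: it read 12.78, 12.80 and 12.77 in NA16, against 12.69, 12.63 and 12.93 in A16 (change 0.06, adjusted p = 0.755). A dimmer probe set of Tjp1 gave -0.44 and was not called, so the mean over its probe sets was -0.19, not called either. Ocln, occludin, read 7.06, 6.83 and 6.94 in NA16, against 6.60, 6.64 and 6.52 in A16. Every NA16 array was higher, yet the change of 0.32 was not called (adjusted p = 0.0795). A dimmer probe set of Ocln gave 1.04 and was called when all probe sets were tested (adjusted p = 0.00703), and the PLIER values of the brightest gave 0.52 (adjusted p = 0.0203).

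None of the 16 claudins, the strand-forming proteins of tight junctions, was called. Their log2 changes lay between -0.20 (Cldn16) and 0.41 (Cldn12), and 13 of them were in the dimmest class. Cldn12, with a signal of medium brightness (62.1 percentile), had higher values on every NA16 array, with an adjusted p of 0.069. In the PLIER values, Cldn12 was called higher (0.44, adjusted p = 0.0468) and Cldn1 was called lower (-0.69, adjusted p = 0.00612), whereas the change of Cldn1 in the RMA values was -0.13.

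Of 11 connexins, Gjb5 and Gja4 were higher and Gjc1 was lower. Gjc1, a connexin of cardiac conduction tissue and smooth muscle, read 9.61, 8.95 and 9.16 in NA16, against 10.69, 10.30 and 10.55 in A16. All NA16 arrays were lower, and the change was -1.29 ± 0.18 (adjusted p = 0.00159). Gjb5, a connexin of epidermis and placental trophoblast, read 7.42, 7.25 and 7.55 in NA16, against 6.81, 6.28 and 6.49 in A16. It rose by 0.90 ± 0.16 (adjusted p = 0.00432) with no overlap, on a signal in the dimmest class. Gja4, a connexin of vascular endothelium and ovarian follicles, read 7.45, 7.39 and 7.32 in NA16, against 7.21, 6.64 and 7.01 in A16. The gap between the states was narrow, the change was 0.51 ± 0.17, and the adjusted p of 0.0498 was above the threshold in 9 of 15 alternatives, with a change of 0.28 (adjusted p = 0.2) without A16 replicate 2. Gja1, the main connexin of fibroblasts, read 12.95, 12.73 and 12.67 in NA16, against 12.75, 12.60 and 12.85 in A16. It was among the brightest signals (97.5 percentile) and its change of 0.07 ± 0.12 was not called. Dimmer probe sets of Gja1 gave 0.04 and -0.31 and were not called, so the mean over its probe sets was -0.06. The other connexins had changes between -0.12 and 0.03.

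Non-clustered protocadherins, cadherin relatives known mostly from the nervous system, showed 2 falls among 8 genes. Pcdh18 read 6.81, 6.58 and 6.71 in NA16, against 7.37, 7.44 and 7.42 in A16, and fell by 0.75 ± 0.12 on the log2 scale (adjusted p = 0.00261). The A16 arrays lay close together and none of the NA16 arrays reached them. Pcdh10, a protocadherin that has been linked to actin remodelling and cell movement, read 6.48, 6.12 and 5.93 in NA16, against 6.74, 6.79 and 6.87 in A16. It fell by 0.64 ± 0.11 (adjusted p = 0.00394), with NA16 biological replicate 1 nearest to the A16 arrays. The adjusted p was 0.0864 when the technical repeat was left out and 0.0571 with it averaged with biological replicate 2. Both genes were in the dimmest class. Pcdh19 had lower values on every NA16 array (change -0.37, adjusted p = 0.139).

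Epcam, the epithelial cell adhesion molecule, read 6.72, 6.32 and 6.59 in NA16, against 5.86, 5.995 and 5.96 in A16. All NA16 arrays were higher, and the log2 change of 0.54 ± 0.14 was called (adjusted p = 0.0226) on a dim signal (20.9 percentile). The call was lost without NA16 replicate 1 (0.37, adjusted p = 0.215) and without either A16 replicate, with adjusted p of 0.0991 without replicate 1 and 0.0651 without replicate 2. The PLIER values gave 1.11 (adjusted p = 0.00243).

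**Figure D4:**
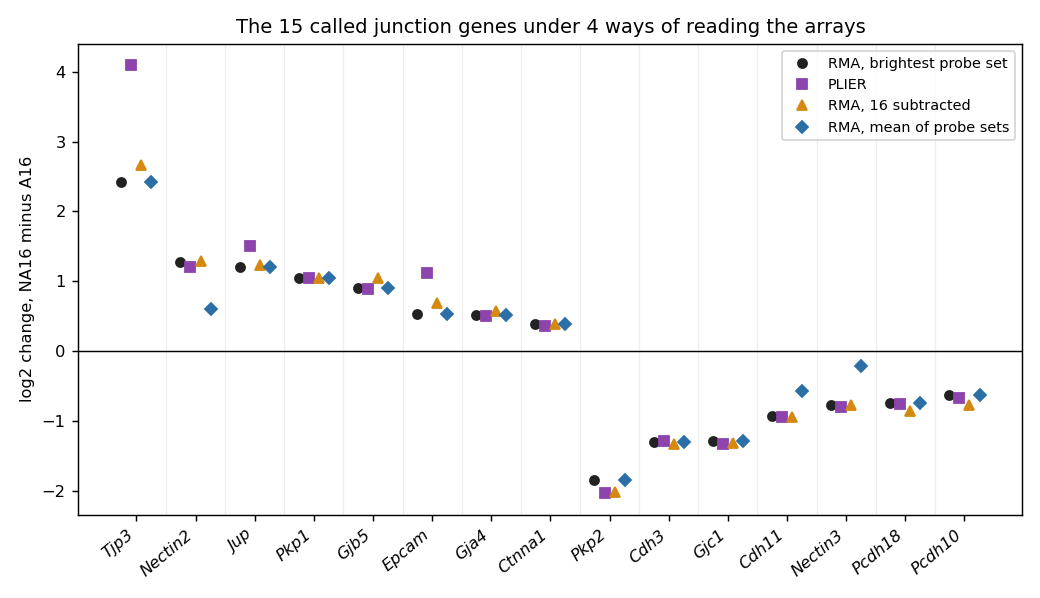
Log2 change (NA16 minus A16, vertical axis) of the 15 called junction genes in the RMA values of the brightest probe set, the PLIER values, the RMA values after 16 was subtracted, and the mean over the probe sets of each gene. Each gene keeps its side of 0 in all 4 readings, Tjp3 and Epcam are larger in PLIER, and Nectin2, Cdh11 and Nectin3 are smaller in the mean over probe sets.

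All 15 called genes kept their sign in every alternative, and 8 of them (Tjp3, Pkp1, Gjb5, Pkp2, Cdh3, Gjc1, Cdh11 and Pcdh18) were called in every alternative that tested them by limma. Some of these alternatives leave a single replicate in a state, whose spread is then not measured, so a call there adds little. Another takes every array as its own replicate, the technical repeats included. PLIER called 18 members and RMA called 15, with 13 in common, and no gene was called in opposite directions. Of the 5 called in PLIER only, Cdh15 changed by 0.55 (adjusted p = 0.0214), against -0.02 in RMA. Pcdh17 changed by 0.56 in PLIER (adjusted p = 0.0323), against 0.20 in RMA, and the others were Cldn1, Cldn12 and Ocln. Ctnna1 and Gja4 were called in RMA only.

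Sequence upstream of the start was at hand for 52 of the 70 members and for 8 of the 15 called genes, from RefSeq on the build GRCr8. The genes shown are the called members whose 250 bases before the start lay wholly outside the annotated gene, which were 3 genes that rose. Capitals mark CAGGTG or its reverse complement CACCTG, the E-box bound by Snail and Zeb factors, known repressors of epithelial junction genes, and ACGTG or its reverse complement CACGT, the core of the element bound by hypoxia-inducible factors. The sequences run 5′ to 3′ along the gene: Pkp1 at chr13:49909163-49909412, Epcam at chr6:12649679-12649928 and Gja4 at chr5:144920325-144920574, all on the minus strand.
Pkp1: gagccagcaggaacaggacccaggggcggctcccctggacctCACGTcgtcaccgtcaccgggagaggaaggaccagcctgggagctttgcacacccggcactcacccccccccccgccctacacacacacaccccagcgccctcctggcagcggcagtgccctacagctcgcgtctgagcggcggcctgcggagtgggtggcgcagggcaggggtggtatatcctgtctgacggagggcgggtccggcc
Epcam: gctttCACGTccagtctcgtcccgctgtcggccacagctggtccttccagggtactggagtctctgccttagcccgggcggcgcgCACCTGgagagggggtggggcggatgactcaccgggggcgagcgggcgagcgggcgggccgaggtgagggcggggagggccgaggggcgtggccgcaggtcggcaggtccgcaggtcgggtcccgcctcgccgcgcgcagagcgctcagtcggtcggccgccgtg
Gja4: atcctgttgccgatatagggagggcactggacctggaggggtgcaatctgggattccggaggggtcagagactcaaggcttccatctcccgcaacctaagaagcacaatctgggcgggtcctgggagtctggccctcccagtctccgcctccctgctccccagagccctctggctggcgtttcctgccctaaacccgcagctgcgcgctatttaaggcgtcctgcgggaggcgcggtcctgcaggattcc
The E-box letters were in the Epcam sequence and in those of Tjp3 and Jup, and were found in 15 of the 52 members (28.8%) and in 15.9% of all 33469 promoters in windows of the same length. Each member was counted once, by its first listed start, whereas the 33469 promoters are all listed entries. The shares are therefore over unlike sets, and whether they differ was not tested. The shorter ACGTG letters were in the sequences of Pkp1, Epcam and Pcdh10, in 8 of the 52 members (15.4%) and in 16.6% of all promoters. The windows of Tjp3, Jup and Pcdh10 did not lie wholly outside the annotated gene. The Gja4 sequence held neither. The 2 motifs do not overlap each other, and a match is a description of the letters only.

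Other junction genes, listed with earlier results known, were read in the same fit. Of 66 listed genes 53 were measured, and 11 were higher, 6 were lower and 36 were not called (32.1% called in either direction, where 38.9% of all genes were). The desmosomal cadherins Dsc2 and Dsg2, the membrane partners of Jup and the plakophilins, both rose. Dsc2 read 6.24, 6.46 and 6.43 in NA16, against 4.57, 4.52 and 4.36 in A16, a change of 1.90 (adjusted p = 7.44e-05), and Dsg2 rose by 0.73 (adjusted p = 0.00246). Both signals were in the dimmest class, at the 8.41 percentile for Dsc2 and 31.8 for Dsg2. The arrays of both genes are apart, while Dsg1 and Dsc1 were not called. Ctnnal1, a relative of alpha-catenin, rose by 1.73 (adjusted p = 1.29e-04). Patj and Pals1, scaffolds of the Crumbs polarity complex at tight junctions, rose by 0.80 (adjusted p = 0.0028) and 0.58 (adjusted p = 0.0109). Pvr, the nectin-like partner of Nectin3, was bright and fell: it read 10.72, 10.89 and 10.93 in NA16, against 12.59, 12.48 and 12.63 in A16, a change of -1.69 (adjusted p = 1.09e-04). Cadm1, another nectin-like molecule, fell by 1.09 (adjusted p = 8.77e-04) on a dim signal (27.1 percentile). Vcl, vinculin, which binds alpha-catenin at strained adherens junctions and also sits in focal adhesions, fell by 0.63 (adjusted p = 0.0131). Ctnnb1, beta-catenin, was bright and was not called (0.07, adjusted p = 0.723).

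Cell type markers were read beside these genes. Of 12 fibroblast markers 9 lay in the brightest class. At an adjusted p below 0.05 by limma, 5 were higher (Dcn, Lum, Pdgfra, Pdgfrb and Thy1) and 0 were lower. That is 41.7% called, where 38.9% of all genes were. Dcn, Lum and Pdgfrb lay outside the brightest class. In either direction, 7 had an unadjusted p below 0.05 by limma. The summed intensity of the list was 99581 to 132488 in NA16 and 119203 to 137705 in A16. Of 14 measured epithelial markers 3 were higher (Elf3, Krt8 and Muc1) and 2 were lower (Krt7 and Sfn), or 35.7% called. Their sums were 4605 to 5252 in NA16 and 5600 to 5915 in A16. Krt8, the keratin of simple epithelia, rose by 1.26 (adjusted p = 3.62e-04), and Krt7 fell by 2.06 (adjusted p = 6.81e-05). The epithelial regulator Elf3 rose by 1.97 (adjusted p = 1.04e-04), and the splicing regulator Esrp1 was dim and was not called. Of 8 endothelial markers 1 was higher and 1 lower (25% called), with sums of 906 to 966 in NA16 and 995 to 1086 in A16. Of 8 macrophage markers Cd68 and Lyz2 were higher (25% called), with sums of 1936 to 2238 in NA16 and 1892 to 2164 in A16. Of the other macrophage markers, Cd14 was bright (76.3 percentile) and was not called (-0.35, adjusted p = 0.0669). Ptprc, Csf1r, Adgre1, Aif1 and Cd163 were dim and were not called. The part of other cell types in the junction gene changes was not tested.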

How the data were processed

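Per the labels and the study's methods, RNA of F111 cells was hybridised to Affymetrix rat expression arrays and the authors deposited normalized probe set intensity values of each of 6 arrays under both PLIER and RMA (12 columns); both were run in Avadis, whose version was not given in the sources used here. Each deposited RMA intensity was taken to log2 without further scaling, and no detection calls, scanner files or log2 ratios were used. Array data have no sequencing depth, and the number of arrays limits the precision.

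Of 31042 probe sets that are not controls, 20826 had 1 symbol in the platform annotation, 436 had several and 9780 had none here; the brightest probe set by mean log2 value stood for each of 14217 genes. All 70 members matched current gene records by Entrez number. Technical replicate 2 was averaged with biological replicate 1, which left 2 replicates a state, and NA16 was compared with A16 by limma 3.58.1 (lmFit and eBayes, 2 residual and 4.78 prior degrees of freedom) in R 4.3.3, where p-values were adjusted by Benjamini and Hochberg across the 14217 genes and called below 0.05. The fit was tested on simulated data. ± is the standard error of the fit. The members and lists were chosen with earlier results of these data known. Values by array are given for the 12 members that rose most and the 12 that fell most among those called, which took in all called members, and for 15 genes fixed by name; other members are named where they bound their family's range or come close to the threshold, which was decided after their values were seen. Alternatives were PLIER, 16 subtracted (floor 1), the mean of all probe sets, each probe set as its own feature, median centring, leaving out genes below the 33rd percentile of brightness, other uses of the technical repeat, eBayes with trend, the replicate number as a block, the methods' t-test, a 2-fold minimum and leaving out each replicate. The other uses of the technical repeat included a fit with every array as its own replicate. Promoter letters came from the RefSeq table on GRCr8, in which the window is 250 bases before the start; gene order came from RefSeq on the same build.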

Additional observations from a re-analysis of the deposited data

How the results depend on the processing

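The count of junction genes called higher in NA16 (8) was 4 with the technical repeat left out, 5 with it averaged with its best-correlated array (an alternative chosen after seeing the data), and 5 to 7 when each replicate was left out; it was lowest without A16 replicate 2 or NA16 replicate 1. The count called lower (7) was 7 to 8 when each replicate was left out. Requiring at least 2-fold left 4 higher and 3 lower. By the methods' t-test, an unadjusted p below 0.05 with at least 2-fold was met by 2 members that rose and 3 that fell, and after Benjamini-Hochberg by 0 and 0, against 20 members at an unadjusted p below 0.05 by limma; over all genes, the t-test counts were 1020 and 789, and 13 and 7 after adjustment. With the replicate block, 11 members were higher and 10 lower; the numbers are not stated to pair the cultures, although replicate 1 minus replicate 2 correlated between NA16 and A16 (r = 0.56 across 14217 genes, 2 pairs). Of the other junction genes, 11 were higher in the fit reported: 5 with dim genes left out, 7 with the technical repeat left out, 18 with the replicate block, 7 to 8 when each replicate was left out, 2 with at least 2-fold, and 2 and 0 by the t-test before and after adjustment. The 6 that were lower became 3 to 5 when each replicate was left out (3 without A16 replicate 2), 2 with at least 2-fold, and 2 and 0 by the t-test. The cause of these differences was not tested. Among the 8 uncalled genes given by array, the sign changed in 18 readings over 6 genes, and Ocln was called in 5 alternatives. With 3 arrays a state and no detection calls, changes of dim genes are the least certain.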

Other observations

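Clustered protocadherins lie outside the symbol rule and were looked at after their values were seen. Of 9 measured genes of the alpha and beta clusters 2 were called higher and none was called lower, where 21.9% of all genes were called higher. Pcdhb19 rose in NA16 by 0.85 ± 0.11 on the log2 scale (adjusted p = 0.00112) and Pcdhb21 rose by 0.56 ± 0.16 (adjusted p = 0.0309), both on dim signals. The other 7 were not called, with changes between -0.14 (Pcdhb22) and 0.37 (Pcdhb17). Probe sets shared by several genes of a cluster were outside the fit and were not tested. Such a probe set for 15 genes of the alpha cluster read 9.57, 9.30 and 9.20 in NA16, against 8.40, 8.31 and 8.34 in A16 (change 1.00). Another read 9.39, 9.36 and 9.44, against 8.70, 9.04 and 8.76 (change 0.51), and neither overlapped between the states. Gamma cluster probe sets changed by 0.39 and 0.19, with overlapping arrays.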
